A study of Mus musculus with 2 samples.

Results

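The 10 genes described here encode the NF-kB subunits Nfkb1, Nfkb2, Rel, Rela and Relb, the inhibitors Nfkbia, Nfkbie and Tnfaip3, and Bcl3 and Nfkbiz, 2 nuclear relatives of the inhibitors. They were chosen by symbol from the 32285 genes of the matrices, with no measured value in the rule, and all 10 were found. Earlier results of these data were known when the choice was made, so the counts of members below are not independent of them. The 10 genes were measured by single-cell RNA sequencing in endothelial cells (ECs) of the mouse lung. Wild-type C57BL/6 mice were injected through the tail vein with PBS (control) or with 400000 B16-F10 cells in 100 µl, and the lungs were taken 6 h later. B16-F10, a mouse melanoma line of the same strain, had been stained with a green dye before injection. The sort took PECAM1+ PTPRC- cells, which have an endothelial and no leukocyte surface marker, together with the stained melanoma cells. The labels give 2 mice per treatment, pooled before the library was made, so each group is 1 library.

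NF-kB is a family of transcription factors that act as dimers of 5 subunits. In resting cells inhibitor proteins of the IkB family hold the dimers in the cytoplasm. Kinases triggered by cytokines or microbial products mark the inhibitors for destruction, the dimers enter the nucleus, and among the genes they switch on are those of their own inhibitors and of several subunits. In ECs the pathway is best known for inducing adhesion molecules and chemokines that recruit leukocytes.

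With 1 library per group there was no replicate error, no test and no p-value. Every difference below compares 2 libraries, and every interval is a 95% interval of counting error only. Levels are unique molecular identifiers (UMIs, which mark captured RNA molecules) per 1000000 UMIs of the same cells (CPM). A gene was compared in a cell class when it had at least 50 UMIs over both libraries, and was counted as higher or lower when its levels differed by at least 1.5-fold, which is 0.58 on the log2 scale. Sequencing gave 85794655 UMIs for control and 104978816 for B16-F10 lungs, and the kept cells numbered 7830 and 7767, with a median of 7500 and 8557 UMIs. Of the barcodes of these cells, 18 occurred in both libraries. Vessel classes were named from markers: general capillary (gCap-like, 4952 control and 4643 B16-F10 cells), aerocyte capillary (aCap-like, 1448 and 969), artery-like (249 and 167), vein-like (302 and 294) and lymphatic (LEC-like, 58 and 47). Both capillary classes were made of different shares of their clusters in the 2 libraries. The gCap-like cluster led by Lalba, Tmem252 and Adamts9 held 91 control and 1081 B16-F10 cells. Of the aCap-like clusters, that led by Fibin, Ccdc184 and Rprml held 908 control and 895 B16-F10 cells and that led by Tmeff2, Rgs6 and Pde8b held 540 and 74. Values for both classes are therefore also given by cluster, in part as ranges over clusters or counts of clusters.

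Because NF-kB is known to act on promoters of its own family, the 250 bases before the start site are shown for 7 members. They come from RefSeq (GRCm38.p6), run 5′ to 3′ on the strand of the gene, and capitals mark matches on either strand to the kB consensus, the decamer that NF-kB dimers bind, or to TTCNNNGAA, the STAT motif. Nfkb1, Relb and Nfkbiz were not matched in the promoter table. Where a member has several annotated starts, the one with the most matches is printed.
Bcl3 (chr7:19822756-19823005, minus strand): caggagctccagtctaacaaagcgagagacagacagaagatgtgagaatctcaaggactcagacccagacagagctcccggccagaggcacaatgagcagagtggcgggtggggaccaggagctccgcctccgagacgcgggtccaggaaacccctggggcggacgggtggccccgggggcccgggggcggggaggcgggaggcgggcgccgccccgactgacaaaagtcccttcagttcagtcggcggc
Nfkb2 (chr19:46304487-46304736, plus strand): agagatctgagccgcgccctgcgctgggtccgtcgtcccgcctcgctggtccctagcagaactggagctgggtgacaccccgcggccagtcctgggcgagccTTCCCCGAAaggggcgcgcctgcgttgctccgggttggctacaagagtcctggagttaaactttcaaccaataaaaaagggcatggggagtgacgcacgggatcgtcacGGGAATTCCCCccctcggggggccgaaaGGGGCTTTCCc
Rel (chr11:23770970-23771219, minus strand): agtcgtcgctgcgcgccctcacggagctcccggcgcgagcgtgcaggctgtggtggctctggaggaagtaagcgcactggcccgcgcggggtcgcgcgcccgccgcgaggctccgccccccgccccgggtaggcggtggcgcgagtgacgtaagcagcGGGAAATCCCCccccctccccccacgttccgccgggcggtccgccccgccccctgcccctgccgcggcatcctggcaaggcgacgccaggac
Rela (chr19:5637291-5637540, plus strand): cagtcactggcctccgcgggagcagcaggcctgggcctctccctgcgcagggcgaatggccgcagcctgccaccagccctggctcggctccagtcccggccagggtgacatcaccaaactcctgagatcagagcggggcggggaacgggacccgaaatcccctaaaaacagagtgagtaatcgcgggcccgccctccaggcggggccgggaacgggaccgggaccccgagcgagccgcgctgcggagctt
Nfkbia (chr12:55492648-55492897, minus strand): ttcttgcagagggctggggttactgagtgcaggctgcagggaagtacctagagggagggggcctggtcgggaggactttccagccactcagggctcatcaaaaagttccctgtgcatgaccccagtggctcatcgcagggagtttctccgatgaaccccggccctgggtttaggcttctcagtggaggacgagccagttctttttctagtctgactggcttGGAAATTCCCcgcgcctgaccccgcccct
Nfkbie (chr17:45555450-45555699, plus strand): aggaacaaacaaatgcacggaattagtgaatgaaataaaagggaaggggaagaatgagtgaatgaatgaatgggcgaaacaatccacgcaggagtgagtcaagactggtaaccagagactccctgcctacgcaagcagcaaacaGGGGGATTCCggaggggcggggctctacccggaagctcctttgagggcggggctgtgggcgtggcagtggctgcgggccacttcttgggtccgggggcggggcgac
Tnfaip3 (chr10:19015411-19015660, minus strand): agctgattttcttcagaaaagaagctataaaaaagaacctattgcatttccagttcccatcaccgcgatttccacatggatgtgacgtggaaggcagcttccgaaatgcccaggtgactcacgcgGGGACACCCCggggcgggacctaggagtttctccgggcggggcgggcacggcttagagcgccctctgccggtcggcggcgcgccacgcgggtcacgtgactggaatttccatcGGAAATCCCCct

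The kB consensus was found in 7 of the 10 promoters of these members, against 3.90% of 32851 promoters of the same length. These 7 belong to 5 of the 7 members. In Tnfaip3 there were matches 125 to 116 and 12 to 3 bases before the start. In Nfkb2 the printed promoter held overlapping matches 39 to 29 bases and a further match 11 to 2 bases before the start, and both other annotated starts of this gene had a match as well. The other annotated start of Tnfaip3 had none. The match lay 29 to 20 bases before the start of Nfkbia, 106 to 97 bases before that of Nfkbie and, as an overlapping pair, 92 to 82 bases before that of Rel. Bcl3 and Rela held none in this window. TTCNNNGAA was found in Nfkb2 alone, 148 to 140 bases before the start, against 7.02% of all promoters. A match is a run of letters and was not measured as a bound site.

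**Figure D1:**
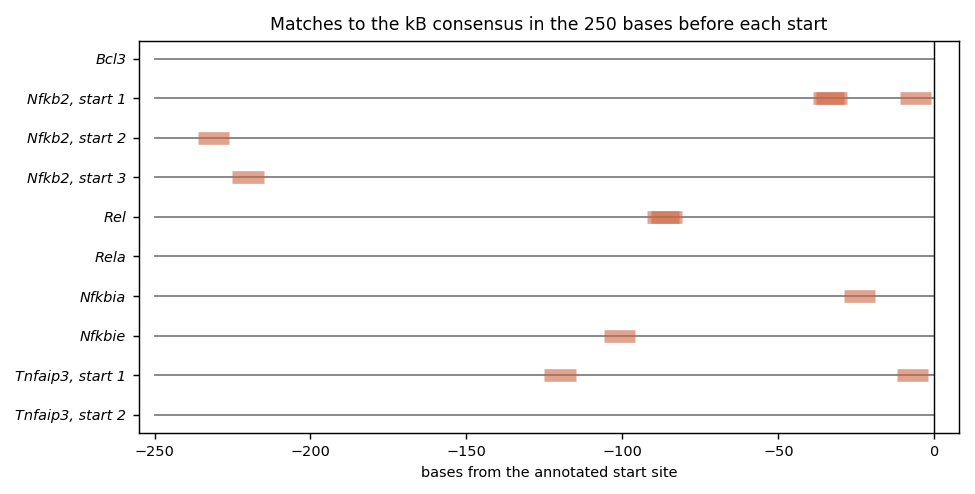
Positions of kB consensus matches (orange) in bases from the annotated start site (x axis) for the 10 annotated starts of 7 members (lines). Matches lie within 39 bases of the start in Nfkb2, Nfkbia and Tnfaip3, and the lines of Bcl3 and Rela hold none.

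In control lungs each member was detected in every vessel class, and the classes differed for some members far more than for others. Nfkbiz (ENSMUSG00000035356, chr16:55811375-55838899 on GRCm38, as for the genes below), which encodes a nuclear cofactor of NF-kB, was the most uneven. Its control level was 56.1 CPM in artery-like (46.2 to 67.5) and 53.9 in vein-like ECs (46.1 to 62.7), but 8.54 in aCap-like (7.03 to 10.3) and 7.37 in gCap-like ECs (6.53 to 8.30). The pair of large-vessel classes did not differ beyond counting error, nor did the pair of capillary classes, and LEC-like ECs held only 8 UMIs of this gene.

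Of the subunits, Rela (ENSMUSG00000024927, chr19:5637483-5648130), the main activating subunit, had its highest control level in aCap-like ECs, at 118 CPM (113 to 124) against 68.8 in vein-like, 63.9 in gCap-like, 57.6 in artery-like and 47.8 in LEC-like ECs. The 4 lower classes did not differ from their neighbours in this order beyond counting error. Rel (ENSMUSG00000020275, chr11:23736847-23770970), another activating subunit, stood at 45.4 CPM in gCap-like and 38.4 in vein-like ECs, which did not differ, with aCap-like ECs at 27.2, artery-like ECs at 22.0 and LEC-like ECs at 14.6 CPM. Rela and Rel were thus placed differently: aCap-like ECs led for the first and gCap-like ECs stood above them for the second.

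Nfkb1 (ENSMUSG00000028163, chr3:135584655-135691547), the precursor of the p50 subunit, ranged from 161 CPM (155 to 169) in aCap-like to 210 (190 to 231) in artery-like ECs. These 2 intervals do not overlap, though no neighbours in the order differed beyond counting error. Another annotated gene, Gm43430, overlaps Nfkb1 on the same strand, so reads there may have been divided between them. Nfkb2 (ENSMUSG00000025225, chr19:46304320-46312385), the precursor of p52, had its highest control level in vein-like ECs, at 20.9 CPM (16.2 to 26.6), and lay between 10.5 and 14.6 in the other classes. Relb (ENSMUSG00000002983, chr7:19606217-19629438), the partner of p52, was at 39.0 CPM in vein-like, 31.2 in LEC-like, 22.8 in gCap-like, 19.7 in aCap-like and 19.0 in artery-like ECs.

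Nfkbia (ENSMUSG00000021025, chr12:55489410-55492647), which encodes the inhibitor IkB-alpha, also led in vein-like ECs, at 484 CPM (460 to 509). It stood at 340 in gCap-like, 290 in artery-like, 285 in aCap-like and 179 in LEC-like ECs, and only the artery-like and aCap-like values did not differ. Nfkbie (ENSMUSG00000023947, chr17:45555703-45563169), the gene of IkB-epsilon, was sparse everywhere, at 2.23 CPM in gCap-like and 6.25 in aCap-like ECs. Tnfaip3 (ENSMUSG00000019850, chr10:19000910-19015657), which encodes the ubiquitin-editing brake A20, ranged from 9.68 CPM in aCap-like to 14.3 in vein-like ECs with no step beyond counting error. Bcl3 (ENSMUSG00000053175, chr7:19808462-19822770) encodes a nuclear partner of p50 and p52 homodimers. It was at 26.6 CPM in vein-like, 22.0 in artery-like, 18.1 in gCap-like, 12.4 in aCap-like and 8.32 in LEC-like ECs. Of the steps between neighbours, only that from gCap-like to aCap-like exceeded counting error. The vein-like interval (21.3 to 33.0) nonetheless lay above the gCap-like one (16.7 to 19.5).

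**Figure D2:**
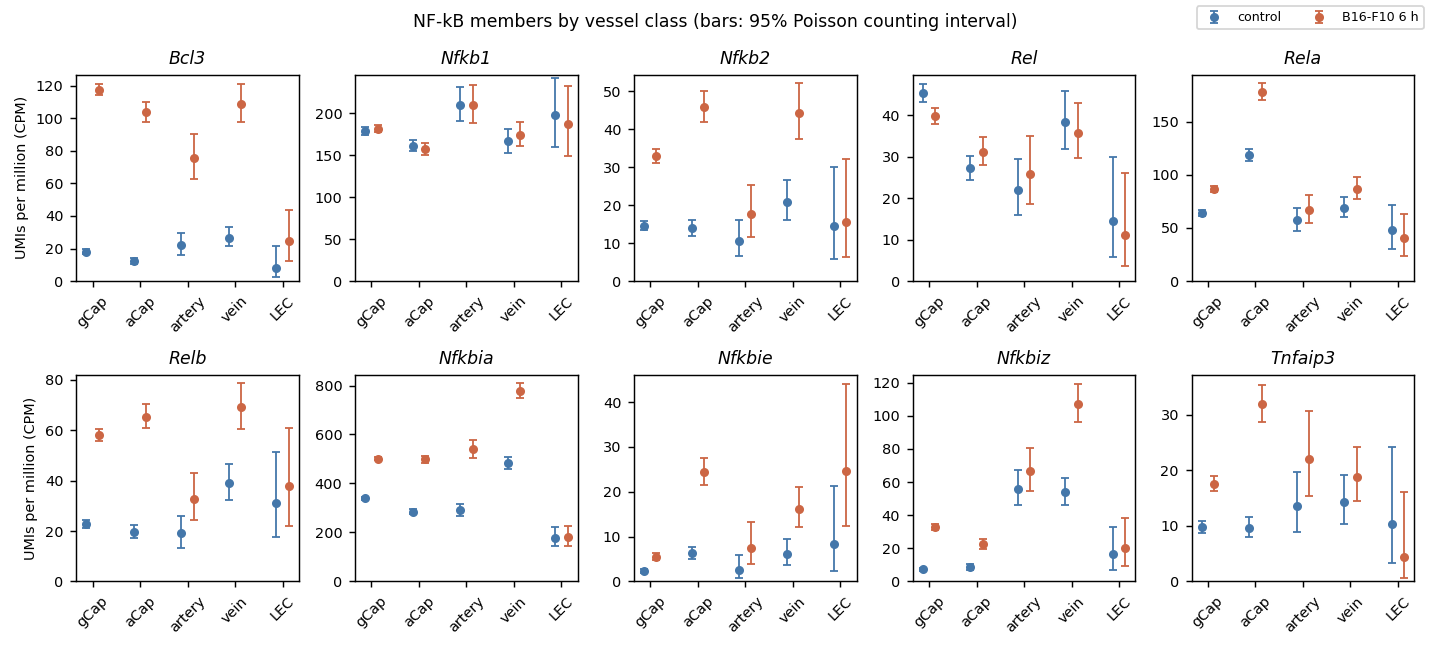
Level of each member in CPM (y axis, from 0) by vessel class (x axis) in the control (blue) and B16-F10 (orange) libraries, with bars for the 95% Poisson counting interval. Bcl3 in gCap-like ECs stands at 18.1 and 117 CPM, Nfkb1 at 179 and 181 CPM, and Nfkbiz starts high in artery-like and vein-like ECs.

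The next comparison asked how these levels differed 6 h after the melanoma cells arrived. In gCap-like ECs, 6 of 10 members were at least 1.5-fold higher in the B16-F10 library, where 7.89% of 13317 genes were that much higher. None was 1.5-fold lower, against 9.52% of genes. The median log2 ratio of the members was 1.01, and that of all genes -0.04. Of the 10 intervals, 8 lay above 0 and 1 below. At this depth many intervals leave 0: of 27 kinases and adaptors of the pathway, 11 lay above and 11 below. The share over all genes was not counted.

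Bcl3 differed most. In gCap-like ECs it went from 18.1 CPM (16.7 to 19.5, 674 UMIs) to 117 CPM (114 to 121, 4806 UMIs), which is 6.50-fold higher and a log2 ratio of 2.70 (2.58 to 2.82). It ranked 46 among the 13317 genes by this ratio. The annotated genes Gm16174 and Gm16175 overlap Bcl3 on the opposite strand. Bcl3 is among the markers that the study chose on these and other libraries for its reactive capillary state, rCap, so its direction here is not independent of that choice, and no other member is on that list. Nfkbiz, the other nuclear relative of the inhibitors, followed with 7.37 CPM in the control and 32.7 CPM in the B16-F10 library (30.9 to 34.5), a log2 ratio of 2.15 (1.96 to 2.34).

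Relb and Nfkb2, the subunits of the alternative pathway, passed 1.5-fold, and Rela, Nfkb1 and Rel of the classical pathway did not. Relb was at 22.8 CPM in the control and 58.2 in the B16-F10 library, a log2 ratio of 1.35 (1.24 to 1.47), and Nfkb2 was at 14.6 and 32.9 CPM, a log2 ratio of 1.17 (1.03 to 1.32). Psd overlaps Nfkb2 on the opposite strand, and whether strand was used in counting is not given in the sources used here. Rela stood at 63.9 and 86.5 CPM, a log2 ratio of 0.44 (0.36 to 0.51) that stays under 1.5-fold. Nfkb1 was at 179 CPM in the control and 181 in the B16-F10 library, and the interval of its log2 ratio ran from -0.03 to 0.07. Rel was the only member with an interval below 0 in gCap-like ECs, at 45.4 and 39.8 CPM and a log2 ratio of -0.19 (-0.29 to -0.09).

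Among the inhibitors, Nfkbie was at 2.23 and 5.52 CPM, a log2 ratio of 1.31 whose interval of 0.94 to 1.69 is wide because it rests on 309 UMIs. Tnfaip3 was at 9.76 and 17.6 CPM, with a log2 ratio of 0.85 (0.66 to 1.03). Nfkbia had the narrowest interval of the members, from 0.53 to 0.59. Its levels were 340 CPM in the control and 502 in the B16-F10 library, a 1.48-fold difference just under the threshold, which it crossed when genes were scaled over both libraries for clustering (log2 ratio 0.62).

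**Figure D3:**
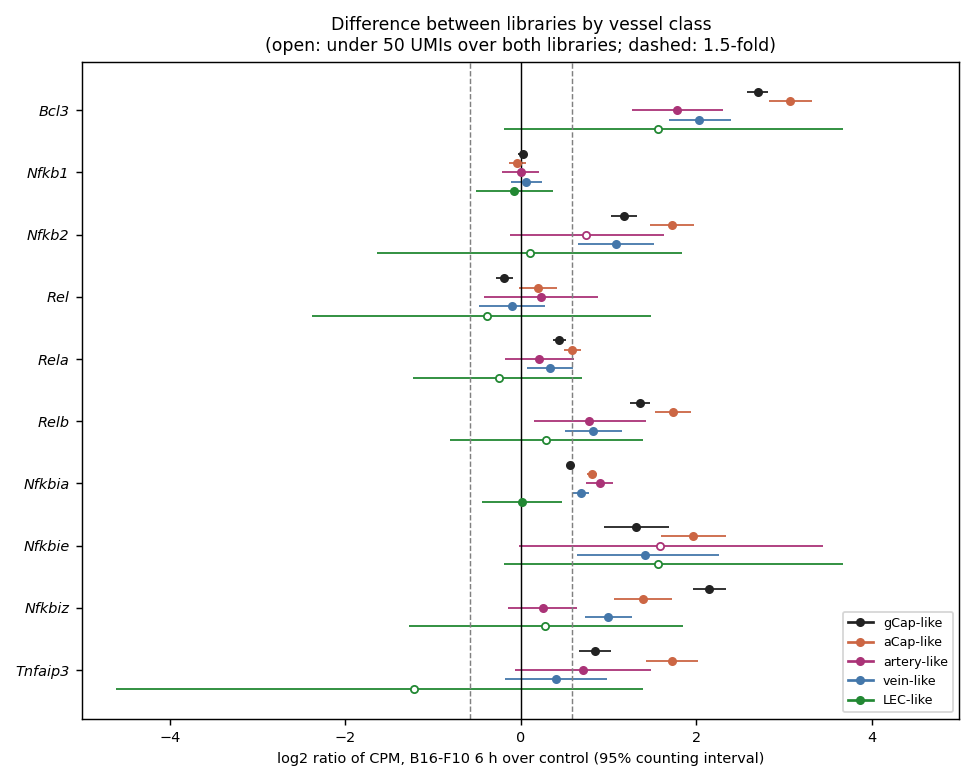
Log2 ratio of CPM, B16-F10 over control (x axis), for each member (lines) in 5 vessel classes (colours), with 95% counting intervals; open points have under 50 UMIs over both libraries and dashed lines mark 1.5-fold. Bcl3 lies beyond 1.5-fold in the 4 blood vessel classes, from 1.78 in artery-like to 3.07 in aCap-like ECs, while the Nfkb1 points lie between -0.08 and 0.06.

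Within the gCap-like class, the 7 clusters were compared 1 by 1. The cluster led by Lalba had the highest Bcl3 level in both libraries, with 94.1 CPM in the control (73.1 to 119, 91 cells) and 244 in the B16-F10 library (234 to 254, 1081 cells). In the other 6 clusters Bcl3 was between 13.3 and 22.0 CPM in the control and between 63.6 and 96.3 CPM in the B16-F10 library, so the libraries did not overlap among these clusters. Bcl3 was higher in all 7 clusters, with log2 ratios from 1.37 (1.03 to 1.74) in the Lalba-led cluster to 2.47 (2.12 to 2.82) in the cluster led by Sox11. The Lalba-led cluster is mostly of 1 library, and a state of the cells and a property of that library cannot be told apart there.

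Nfkb2, Relb and Nfkbiz were likewise at least 1.5-fold higher in all 7 gCap-like clusters. The share of all genes that met such rules over the clusters was not counted, and all clusters come from the same pair of libraries. Nfkb2 ranged from 0.74 to 1.44 on the log2 scale, Relb from 0.76 to 1.5 and Nfkbiz from 0.75 to 2.32. Nfkbie, counted as higher over the class, was at least 1.5-fold higher in 5 of the 7 clusters. Its interval lay above 0 in 4 of them. Rela passed 1.5-fold in no cluster and had 5 intervals above 0. Nfkb1 had 1 interval below 0 and none above. Nfkbia had intervals above 0 in all 7 clusters but passed 1.5-fold in only 2, with its highest ratio of 0.89 in the cluster led by Adgrl3, where its control level of 151 CPM was the lowest of the 7.

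Tnfaip3 went the other way in the Lalba-led cluster. Its level there was 48.4 CPM in the control (33.7 to 67.3, 35 UMIs) and 31.1 in the B16-F10 library (27.8 to 34.7, 318 UMIs), a log2 ratio of -0.64 (-1.15 to -0.09). Only 2 of the other 6 clusters had an interval above 0, with a highest ratio of 0.92. When the B16-F10 library was given the control mix of gCap-like clusters, an alternative added after seeing the data, the log2 ratio of Tnfaip3 was 0.49, under 1.5-fold, that of Bcl3 was 2.19 and that of Nfkbiz 1.64. Rel had intervals below 0 in 4 of 7 clusters and above 0 in none.

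**Figure D4:**
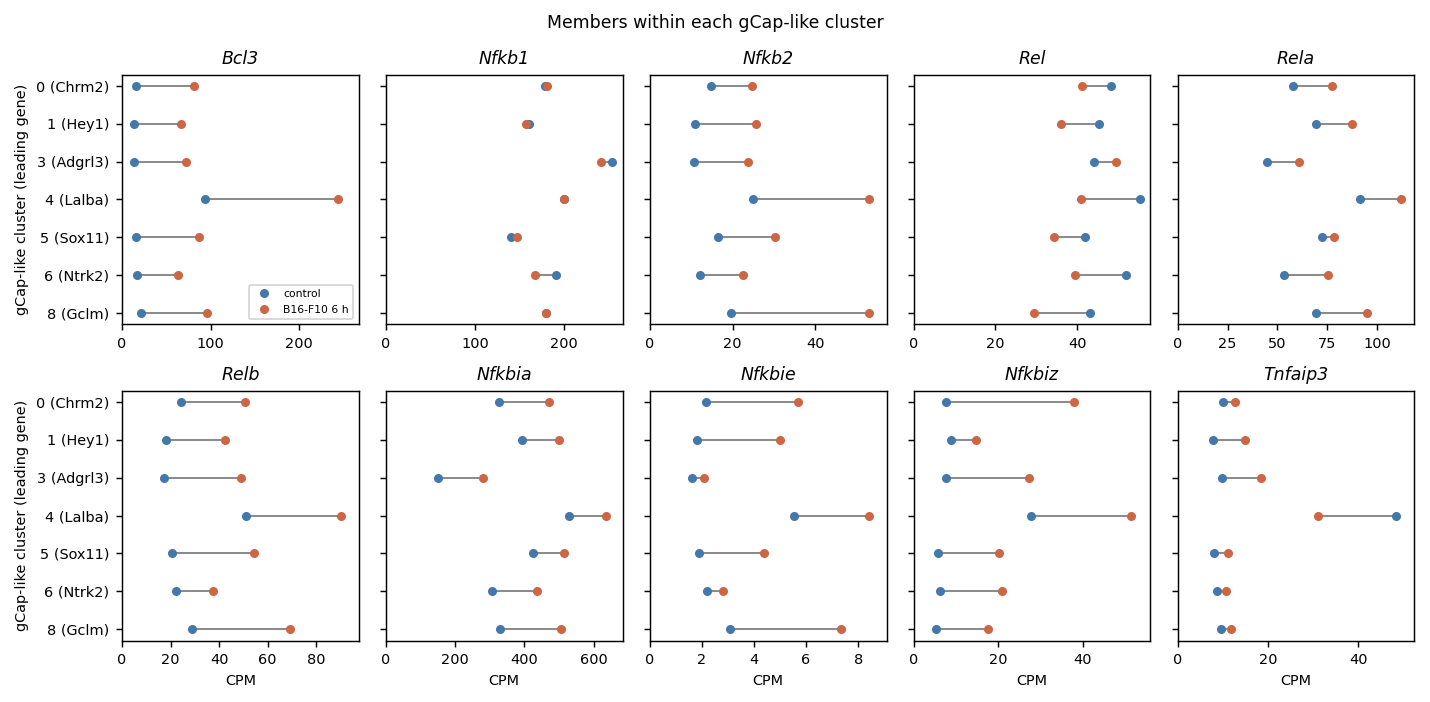
CPM (x axis, from 0) of each member in the 7 gCap-like clusters (lines, named by number and leading gene), control (blue) and B16-F10 (orange), joined by a line. The Lalba-led cluster holds the highest Bcl3 levels of both libraries, 94.1 and 244 CPM, and is the only cluster in which Tnfaip3 is lower in the B16-F10 library.

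To see whether the levels rested on many or few cells, each gCap-like cell was thinned to 2000 UMIs. A Bcl3 UMI was then found in 166 of 4890 control cells (3.39%, 2.90 to 3.94) and in 848 of 4615 B16-F10 cells (18.4%, 17.3 to 19.5). At full depth these shares stood at 11.1% and 49.7%. Thinning left out 62 control and 28 B16-F10 cells that were shallower. Free RNA at its estimated level would give a Bcl3 UMI in 0.0425% of control and 0.467% of B16-F10 cells at the same depth. After thinning, no B16-F10 cell held more than 5 Bcl3 UMIs. The level thus rested on many cells, but unevenly. At full depth the Lalba-led cluster, with 1081 of the 4643 B16-F10 cells, held 2494 of the 4806 Bcl3 UMIs.

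The other members that were higher had larger shares of cells as well. Relb went from 3.64% to 10.6% of gCap-like cells, Nfkb2 from 2.72% to 6.52%, Nfkbiz from 1.66% to 6.41% and Tnfaip3 from 1.94% to 3.51%. Nfkbia was found in 44.8% of control and 57.6% of B16-F10 cells, and cells with at least 3 of its UMIs made up 4.81% and 10.6%. Nfkb1 was at 28.6% and 29.7%, and Rel at 8.08% and 7.19%.

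Within each library, gCap-like cells with a Bcl3 UMI were set beside those without one, both at 2000 UMIs. The cells are not replicates and share 1 library. Clusters were pooled here, and at full depth the Lalba-led cluster held 2494 of the 4806 Bcl3 UMIs of the B16-F10 library. Its B16-F10 levels of the other members, except Nfkb1 and Rel, were the highest of the gCap-like clusters. These were Nfkb2 (53.0 CPM), Relb (90.2), Nfkbia (635), Tnfaip3 (31.1), Rela (112), Nfkbie (8.41) and Nfkbiz (51.3). The cluster led by Gclm was within counting error for Nfkb2, at 52.9 CPM (41.4 to 66.7), and for Nfkbie, at 7.35 CPM (3.53 to 13.5). The part of cluster mix in the ratios below was not tested, and the share of all genes with such ratios was not counted. In the B16-F10 library Nfkb2 was at 54.2 CPM in the 848 cells with Bcl3 and 29.7 CPM in the 3767 without, a log2 ratio of 0.87 (0.50 to 1.22). Tnfaip3 had a log2 ratio of 0.84 (0.36 to 1.31), Relb of 0.59 (0.31 to 0.88) and Nfkbia of 0.52 (0.42 to 0.61). The intervals of Rela, from 0.03 to 0.53, and of Nfkb1, from 0.06 to 0.40, also lay above 0, as did that of Nfkbie, from 0.11 to 1.96 on 50 UMIs. Nfkbiz had an interval that included 0, from -0.15 to 0.63, and so did Rel, from -0.16 to 0.60. In the control library, with 166 cells with Bcl3 and 4724 without, the intervals of 3 of the other 9 members lay above 0. These were Tnfaip3, at a log2 ratio of 1.48 (0.30 to 2.46), Relb, at 1.36 with an interval that begins at 0.52, and Nfkbia, at 0.39 (0.14 to 0.63). Nfkb2 had 5 UMIs in the control cells with Bcl3, and its interval ran from -1.53 to 1.38.

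In aCap-like ECs, the large capillary cells of the gas exchange surface, 8 of 10 members were at least 1.5-fold higher, against 6.50% of 11106 genes, and none was lower, against 8.13%. The median log2 ratio of the members was 1.56 and that of all genes 0.01. Bcl3 was at 12.4 CPM in the control and 104 in the B16-F10 library (97.6 to 110), 8.39-fold higher with a log2 ratio of 3.07 (2.83 to 3.31). Control aCap-like ECs had less Bcl3 than gCap-like ECs, and the same order held in the B16-F10 library, with the levels closer together on the log2 scale. In the B16-F10 library this order rested on the Lalba-led cluster, at 244 CPM. The other gCap-like clusters lay between 63.6 and 96.3 CPM. The Fibin-led aCap-like cluster was at 103 CPM (97.3 to 110) and the Tmeff2-led at 110 CPM (80.1 to 148). Summed melanoma markers stood at 46.2 and 67.4 CPM in aCap-like ECs and 8 macrophage and monocyte markers at 14.8 and 26.0 CPM. Erythroid markers were lower in the B16-F10 library, at 1994 CPM in the control and 1094 CPM. The part of these markers in the ratios was not tested.

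Of the inhibitors of aCap-like ECs, Tnfaip3 was at 9.68 and 31.9 CPM, with a log2 ratio of 1.72 (1.42 to 2.02) whose interval does not overlap that in gCap-like ECs. Nfkbia was at 285 and 498 CPM, with a log2 ratio of 0.81 (0.75 to 0.87). In the Fibin-led cluster, which held most of the B16-F10 aCap-like cells, its log2 ratio was 0.59 (0.53 to 0.65), which overlaps the gCap-like interval, and in the Tmeff2-led cluster it was 0.90 (0.56 to 1.22). In the Fibin-led cluster Tnfaip3 was at 1.67 (1.35 to 2.01), and it had 5 UMIs in the B16-F10 cells of the other. Nfkbie was at 6.25 and 24.4 CPM, a log2 ratio of 1.96 (1.6 to 2.34). Differences between classes were not tested, since each rests on the same pair of libraries.

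Relb and Nfkb2 had the largest ratios among the subunits of aCap-like ECs as well. Relb had a log2 ratio of 1.73 (1.53 to 1.95) and Nfkb2 of 1.72 (1.47 to 1.98). Rela was at 118 and 178 CPM, a log2 ratio of 0.59 (0.49 to 0.69) that lies at the 1.5-fold threshold, and aCap-like ECs remained the class with the highest Rela level. Within the clusters Rela stayed under 1.5-fold, at 0.49 (0.39 to 0.59) in the Fibin-led and 0.32 (-0.17 to 0.78) in the Tmeff2-led cluster, so it counts among the 8 higher members only over the whole class. Nfkb1 had a log2 ratio of -0.04 (-0.13 to 0.05) over the class, but its intervals lay above 0 in both clusters, at 0.13 (0.03 to 0.24) and 0.39 (0.10 to 0.67). Bcl3 was higher in both, by 3.03 (2.76 to 3.31) and 3.27 (2.61 to 3.94) on the log2 scale. Over the class, the interval of Rel, from -0.02 to 0.42, included 0. In the Fibin-led cluster Rel was at 0.24 (0.005 to 0.48), just above 0, and in the Tmeff2-led cluster at -0.22 (-1.32 to 0.72). Relb was at 1.63 in the Fibin-led and 2.29 in the Tmeff2-led cluster, and Nfkb2 at 1.59 and 1.97. Nfkbiz had a smaller ratio over the aCap-like class than in gCap-like ECs, at 8.54 and 22.4 CPM and a log2 ratio of 1.39 (1.06 to 1.73). In the Fibin-led cluster Nfkbiz was at 1.39 (1.02 to 1.76) and Nfkbie at 1.93 (1.53 to 2.35). In the Tmeff2-led cluster the intervals of Nfkbiz (-0.67 to 2.20) and Nfkbie (-1.93 to 2.25) included 0, on 6 and 3 B16-F10 UMIs.

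In vein-like ECs 6 of 10 members were at least 1.5-fold higher, against 5.30% of 9379 genes, and none was lower, against 5.67%. Bcl3 was at 26.6 CPM in the control and 109 in the B16-F10 library (97.9 to 121), with a log2 ratio of 2.03 (1.68 to 2.39). Nfkbiz, already at 53.9 CPM in control veins, was at 107 CPM (96.5 to 119) in the B16-F10 library, the highest level of this gene in any vessel class. Nfkbia was at 484 and 780 CPM, also the highest among the vessel classes, with a log2 ratio of 0.69 (0.60 to 0.78). Nfkbie had a log2 ratio of 1.42 (0.64 to 2.25), Nfkb2 of 1.08 (0.65 to 1.52) and Relb of 0.83 (0.50 to 1.15). Tnfaip3, at 14.3 and 18.8 CPM, had an interval that included 0, from -0.18 to 0.98. Summed erythroid markers were at 520 CPM in the control and 3440 CPM in the B16-F10 vein-like cells, and mural markers at 159 and 85.5 CPM. The part of these markers in the ratios was not tested.

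In artery-like ECs 8 of 10 members had enough UMIs, and 4 of these were at least 1.5-fold higher, against 7.77% of 8057 genes, and none lower, against 7.29%. Bcl3 was at 22.0 CPM (44 UMIs) in the control and 75.4 CPM (120 UMIs) in the B16-F10 library, a log2 ratio of 1.78 (1.27 to 2.31), and Nfkbia at 290 and 541 CPM, a log2 ratio of 0.90 (0.75 to 1.05). Relb had a log2 ratio of 0.78 (0.15 to 1.42). Tnfaip3 was 1.63-fold higher on 62 UMIs, and its interval of -0.06 to 1.48 included 0. Nfkbiz, with 56.1 CPM in the control and 66.6 CPM in the B16-F10 library, had a log2 ratio of 0.25 (-0.15 to 0.65), below the gCap-like, aCap-like and vein-like intervals. Nfkb2 and Nfkbie, with 49 and 17 UMIs over both libraries, were not compared. Summed platelet markers were at 4.51 and 31.4 CPM in artery-like cells, and fibroblast markers at 37.0 and 13.2 CPM. The part of these markers in the ratios was not tested.

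LEC-like ECs line lymph vessels and not blood vessels. Their 58 control and 47 B16-F10 cells gave enough UMIs for 2 members, neither of them 1.5-fold higher (against 8.34% of 3875 genes) or lower (against 8.54%). Nfkbia was at 179 CPM in the control and 181 in the B16-F10 library, and its log2 ratio of 0.02 (-0.44 to 0.47) had an interval that lay below those of gCap-like, aCap-like, artery-like and vein-like ECs. Nfkb1 had a log2 ratio of -0.08 (-0.52 to 0.36). Bcl3 had 4 and 11 UMIs, with a log2 ratio of 1.56 and an interval from -0.19 to 3.67, which includes 0 as well as the ratios of the other vessel classes.

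Over the ECs of all classes together, 7 of 10 members were at least 1.5-fold higher, against 7.98% of 14410 genes, and none lower, against 11.3%. The median log2 ratio of the members was then 1.36, and that of all genes -0.06.

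Other genes of the pathway were taken from hand-written lists, also chosen with earlier results of these data known. Of 28 kinases and adaptors, 27 could be compared in gCap-like ECs, 3 were at least 1.5-fold higher (against 7.89% of all genes) and none lower (against 9.52%), and their median log2 ratio of 0.06 lay near the -0.04 of all genes. Map3k14, the kinase that starts the alternative pathway, was at 10.8 and 28.7 CPM, a log2 ratio of 1.41 (1.24 to 1.58). Myd88, the adaptor of Toll-like and interleukin-1 receptors, had a log2 ratio of 0.90, Map3k8 of 0.64 and Rnf31, a ubiquitin ligase subunit, of 0.50.

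Of 16 other inhibitors and brakes, 15 could be compared, 2 were at least 1.5-fold higher and none lower, against the same shares of all genes, and the median was 0.17. Nfkbid, a further nuclear relative of the inhibitors, was at 1.69 and 3.91 CPM, a log2 ratio of 1.21 (0.78 to 1.66). Tnip1, which binds A20, had a log2 ratio of 0.60, and Zc3h12a, an RNase, and Nfkbib, the gene of IkB-beta, had 0.53 each.

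Of 24 target genes, 13 could be compared and the other 11 had under 50 UMIs. Of the 13, 7 were at least 1.5-fold higher (against 7.89% of all genes) and none lower (against 9.52%), with a median of 0.75. Selp and Sele, the selectins that slow leukocytes on the vessel wall, had log2 ratios of 5.68 (4.74 to 6.82) and 4.17 (3.49 to 4.94) from control sums of 9 and 18 UMIs, and passed the 50-UMI filter through the B16-F10 library. Cxcl10, a chemokine for T cells, was at 2.09 and 22.0 CPM, a log2 ratio of 3.39 (3.06 to 3.75), and Vcam1, an adhesion molecule, had a log2 ratio of 3.22 (2.90 to 3.56).

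**Figure D5:**
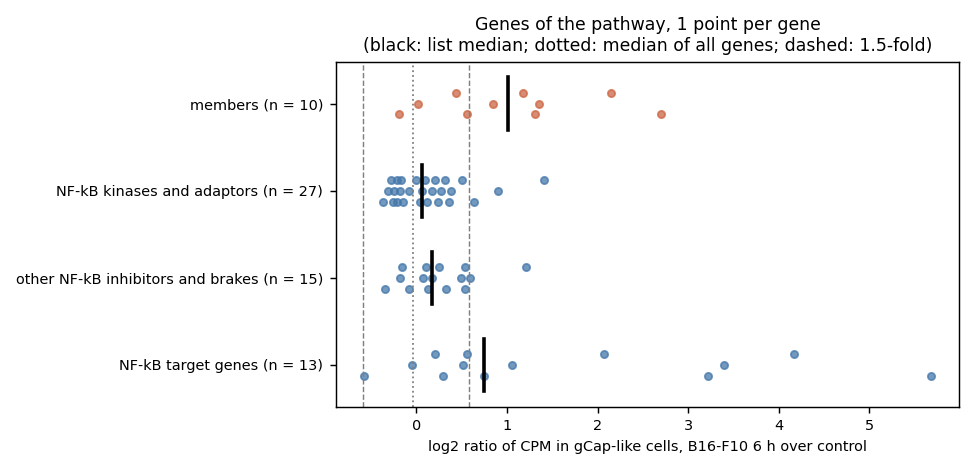
Log2 ratio of CPM in gCap-like ECs, B16-F10 over control (x axis), for every gene compared (points) of the members and of the 3 other lists (lines), with the list median (black) and the median of all genes (dotted). The medians are 1.01 for the members, 0.06 for kinases and adaptors, 0.17 for other inhibitors and brakes and 0.75 for target genes.

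The genes whose log2 ratios were most like those of Bcl3 over gCap-like, aCap-like, artery-like and vein-like ECs were found among 7763 genes by Euclidean distance over these 4 values, as a description. Socs3, a feedback inhibitor of cytokine receptors, was the nearest at a distance of 0.60, with ratios of 2.93 and 3.01 for the gCap-like and aCap-like classes, and of 1.90 and 1.49 for the artery-like and vein-like classes. Tmem252 followed at 1.00, then the transcription factors Cebpd at 1.14 and Atf3 at 1.15, and Gadd45g, a stress-response gene, at 1.23. No other member was among these 5.

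Markers of several other cell types were also higher in the B16-F10 library, though epithelial markers in gCap-like ECs were lower, at 207 and 180 CPM. In gCap-like ECs the summed level of 8 melanoma markers was 26.6 CPM in the control and 53.7 in the B16-F10 library, that of 8 macrophage and monocyte markers 21.5 and 37.1, and that of 8 neutrophil markers 3.03 and 8.63, and none of these genes was at 0 in the B16-F10 library. Mural markers were at 32.1 and 54.4 CPM and erythroid markers at 1213 and 1427 CPM. In the gCap-like cells without a UMI of any leukocyte, platelet, mural or melanoma marker (2836 control and 1517 B16-F10 cells, an alternative added after seeing the data), the log2 ratio of Bcl3 was 2.66, that of Nfkbiz 2.22, that of Relb 1.29 and that of Tnfaip3 0.82. The share of free RNA in gCap-like cells was estimated from epithelial markers at 1.55% and 2.31%, which would supply 2.34 of the 117 CPM of Bcl3 in the B16-F10 library.

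The melanoma-marked cells themselves held little of the members. Among 802184 UMIs of 72 such cells in the B16-F10 library there were 4 of Bcl3, 4.99 CPM (1.36 to 12.8), 6 of Nfkbia, 7.48 CPM (2.74 to 16.3), and none of Nfkbiz, which allows up to 3.74 CPM.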

How the data were processed

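Single cells were measured in 2 libraries of mouse lung, 1 control and 1 taken 6 h after B16-F10 injection. The authors deposited raw UMI counts per gene and barcode for all barcodes, with no filter or normalization, and the headers name Cell Ranger 7.2.0 as their source. The submitters' processing notes also name Seurat 4.4.0. The study's methods name mm10. Whether intron reads were counted is not given in the sources used here, and counting them would raise long genes.

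The limits of the study, 1000 to 5000 genes and less than 20% of UMIs from mitochondrial genes, left 8394 and 8321 cells. Scrublet scores in scanpy 1.11.5 removed 564 and 554 doublets at 0.8% per 1000 cells. Cells were scaled to 10000 UMIs and log-transformed, genes were centred and scaled within each library, and cells were clustered (30 components, 20 neighbours, leidenalg 0.10.2, resolution 0.8, 21 clusters) on 2929 variable genes without the members, the pathway lists and the study's rCap and interferon markers. A class needed at least 3 markers and 60% of its list, each 1.5-fold above the other clusters and in 10% of cells. ECs needed 6 of 8 endothelial markers. A first clustering was seen before these thresholds were chosen. Clusters that met a vessel or endothelial rule together with another cell type were kept out of the ECs as mixed (617 and 1118 cells), and 179 and 335 ECs met no vessel class.

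UMIs were summed per class and library. CPM carry exact Poisson intervals, log2 ratios of B16-F10 over control exact conditional binomial intervals with no pseudocount, and shares of cells Clopper-Pearson intervals (scipy 1.17.1). They cover counting error only. A count of 0 was read as allowing up to 3 counts. The ratio step was tested on simulated data. Shares were taken at 2000 UMIs per cell. Free RNA was estimated from barcodes with 1 to 100 UMIs (1236135 and 1422683 barcodes). Named genes were all members, the 4 genes with the largest absolute ratio of each list and the 5 genes most like Bcl3. The members and lists were chosen with earlier results of these data known. Coordinates come from GENCODE M21 (GRCm38, the build of mm10) and count from 1.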

Additional observations from a re-analysis of the deposited data

Results flagged for a closer look

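Barcodes with 1 to 100 UMIs, which hold too little RNA to be counted as cells and enter no comparison, showed 8 members at higher levels in the B16-F10 than in the control library. The share of all genes that were higher in these barcodes was not counted. Summed epithelial markers stood there at 13359 CPM in the control and 7799 CPM in the B16-F10 library. Over these barcodes Bcl3 was at 13.8 CPM in the control and 101 CPM in the B16-F10 library, a log2 ratio of 2.88. The log2 ratios of Nfkb2 (1.76), Relb (1.6), Nfkbie (1.53), Tnfaip3 (1.5) and Nfkbiz (1.40) were also above 1, and those of Rela (0.65) and Nfkbia (0.48) below it. Nfkb1 and Rel had intervals that included 0, from -0.18 to 0.22 and from -0.31 to 0.51, and both were under 1.5-fold in gCap-like ECs as well. With 1 library per group, no comparison of samples within a group was possible.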

How the results depend on the processing

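Of 778 values recomputed under 17 alternatives for 65 results, 744 stayed within the counting interval or within 1.5 times the count, 34 moved with the same sign and none reversed. The median of the members was 1.36 over the ECs of all classes, against 1.01 in gCap-like ECs. The log2 ratio of Bcl3 in gCap-like ECs was 2.86 with doublets kept, 2.85 with genes scaled over both libraries and 2.19 with the control mix of clusters. The median of the target genes was 0.91 at 500 genes per cell, 0.69 under 10% mitochondrial UMIs and 0.84 at resolution 1.6. It was 0.92 scaled over both libraries, 0.90 at 20 UMIs and 1.12 over all ECs. Over all ECs 17 target genes were compared, and the largest ratio was infinite, from a control count of 0. Genes can pass the UMI filter through the B16-F10 library alone, and the part of this in the medians was not tested. At 2-fold, 1 member was higher in artery-like ECs and 3 were in vein-like ECs. The share of all genes that were 2-fold higher was not counted, so these counts have no background beside them. The share of gCap-like cells with Bcl3 was 19.9% with doublets kept, 19.8% with the lists kept in clustering, 20.3% scaled over both libraries and 32.4% at 4000 UMIs. Among these alternatives, ratios at 2000 UMIs are the mean over all thinnings. The shares of cells, and the ratios between cells with and without a Bcl3 UMI, come from 1 thinning. Among the other moved values, Nfkbia in gCap-like ECs crossed 1.5-fold (0.62 scaled over both libraries, 0.61 without cells that carried other markers). The control mix and the cells without other markers were chosen after seeing the data. The cause of each move was not tested. No paired analysis was possible because there is only 1 library on each side, which also left no replicate to leave out. Depth limits LEC-like ECs, where 2 of 10 members could be compared.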
